A study of Saccharomyces cerevisiae with 4 samples.

Results

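The genes described here encode the proteins of the large subunit of the cytosolic ribosome in budding yeast. They are the 81 rows of the count table, of 7127 features in all, whose standard name is RPL plus a number with an optional A or B, or is one of the stalk genes RPP0, RPP1A, RPP1B, RPP2A and RPP2B. RNA was sequenced from strain BY4742 (MATα his3Δ1 leu2Δ0 lys2Δ0 ura3Δ0), a haploid laboratory strain. The TUDCA group came from exponentially growing YPD cultures exposed for 2 h to 5 mM tauroursodeoxycholic acid, a bile acid joined to taurine that is given to cells as a chemical chaperone, and the Ctrl group from cultures without it. Each group had 2 libraries, and both groups share the strain, its 4 marker alleles and the medium. The labels do not state whether the 2 libraries of a group had separate cultures, and the p-values speak only of the spread among these samples, which may be technical.

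The large subunit forms the peptide bonds of new proteins, and its exit tunnel leads the growing chain out of the ribosome. A whole-genome duplication left most of its proteins in budding yeast with an A and a B gene, and many of these genes carry an intron. Their transcription depends on Rap1, Fhl1 and Ifh1 and follows growth through the TOR and protein kinase A pathways, and in rich medium their messages are among the most abundant in the cell. The 81 genes lay on 14 chromosomes and formed 33 RPL pairs and the RPP1 and RPP2 pairs, 35 in all. The other 11 genes, 10 RPL genes and RPP0, had no second copy. An intron interrupted the counted feature of 51 of the 81.

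Libraries held 74080860 to 97133389 assigned counts, with 0 counts of LEU2 and URA3 and at most 2 of LYS2 in a library, as the labelled alleles would give. HIS3 had 11172 to 17246 counts, and as his3Δ1 removes only part of the gene, a count over the whole gene does not check that allele. Levels below are CPM, counts scaled by library total and TMM factors, and levels set between genes are CPM per kilobase of counted feature. Replicate 2 of Ctrl differed most from the rest in the genes described here. All 81 genes had their highest CPM in Ctrl 2. The lowest CPM was in TUDCA 1 for 70 genes, in TUDCA 2 for 9 and in Ctrl 1 for 2. These counts have no share over all genes beside them. In a bulk culture, fewer cells with a high level and less RNA in each cell cannot be told apart.

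The counted level of several genes rested on a small part of their sequence. Of the 81 features, 14 shared bases with another feature, 13 of them with one on the opposite strand, and none of the 14 covering features was in the RefSeq gene table. Of 190 features of the whole table covered over their full length, 183 (96.3%) had 0 counts in all libraries, against 51 of 5726 (0.891%) with no covered base. RPL39, whose protein lines the exit tunnel, and RPL28, in which changes can give resistance to cycloheximide, are printed below because only the capital letters, bases that no other feature covers, lay outside an overlap. Sequences were read from the RefSeq genome. RPL39 is at chrX:75933-76474 on the plus strand of build R64 and its exons are joined. RPL28 is at chrVII:310967-311927 on the plus strand, and the first 100 of its 450 joined bases are shown. In both genes the capitals are exactly the first exon.
RPL39: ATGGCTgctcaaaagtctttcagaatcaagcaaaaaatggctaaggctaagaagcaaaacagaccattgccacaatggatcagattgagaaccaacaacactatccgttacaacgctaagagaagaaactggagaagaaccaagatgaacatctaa
RPL28: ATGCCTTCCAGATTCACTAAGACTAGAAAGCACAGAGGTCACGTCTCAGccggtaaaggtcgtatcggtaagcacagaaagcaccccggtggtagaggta

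The features YJL188C and YGL102C covered 96.2% of RPL39 and 89.1% of RPL28, which left 6 and 49 bases free. RPL39 had 76 and 114 counts in Ctrl 1 and 2, and 81 and 68 in TUDCA 1 and 2. RPL28 had 2579 and 3724 counts in Ctrl 1 and 2, and 2368 and 2776 in TUDCA 1 and 2. Their levels, 6.54 and 76.4 CPM per kilobase, lay below those of all 9 other genes with no second copy, which ranged from 1134 to 3867. Among these 9, RPP0, the lowest, and RPL10 were covered over 47.8% and 61.3% of their bases. Another 4 genes were covered over more than 80% of their bases, namely RPL43A (99.3%, 2 bases free), RPL22A (96.7%, 12 bases free), RPL36B (93.7%, 19 bases free) and RPL33A (88.0%, 39 bases free). The 6 genes covered by more than 80% had 4.04 to 76.4 CPM per kilobase, and the 69 covered by less than 10% had 138 to 13556. These 6 genes kept few free bases, so their low levels describe what was counted and are not read as low expression.

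**Figure D1:**
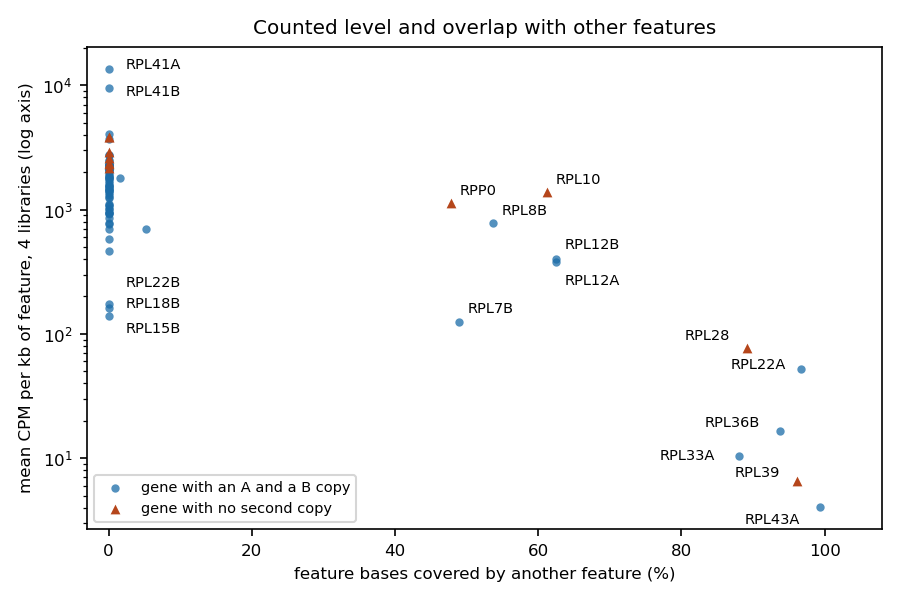
Counted level against overlap for the 81 genes. The x axis is the percentage of feature bases covered by another feature and the y axis the mean CPM per kilobase over 4 libraries on a log scale. The 6 genes at the lower right, covered by more than 80%, had 4.04 to 76.4 CPM per kilobase.

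Coverage was partial in 6 more genes. RPL12A and RPL12B, whose protein sits at the base of the stalk, were covered at the same 311 bases of 498 by different features, and both kept 187 free bases at the 3′ end. RPL10, whose protein is among the last to join the maturing subunit, kept 258 of 666 bases, RPL8B 357 of 771, RPL7B 375 of 735 and RPP0 490 of 939. Overlap was 5.28% in RPL36A and 1.66% in RPL21A, and the latter lay on the same strand as its covering feature YBR190W. The covering features over these 6 genes had between 5 and 915 counts over the 4 libraries. YLR339C over RPP0 had 0, 0, 2 and 3 counts in Ctrl 1, Ctrl 2, TUDCA 1 and TUDCA 2.

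**Figure D2:**
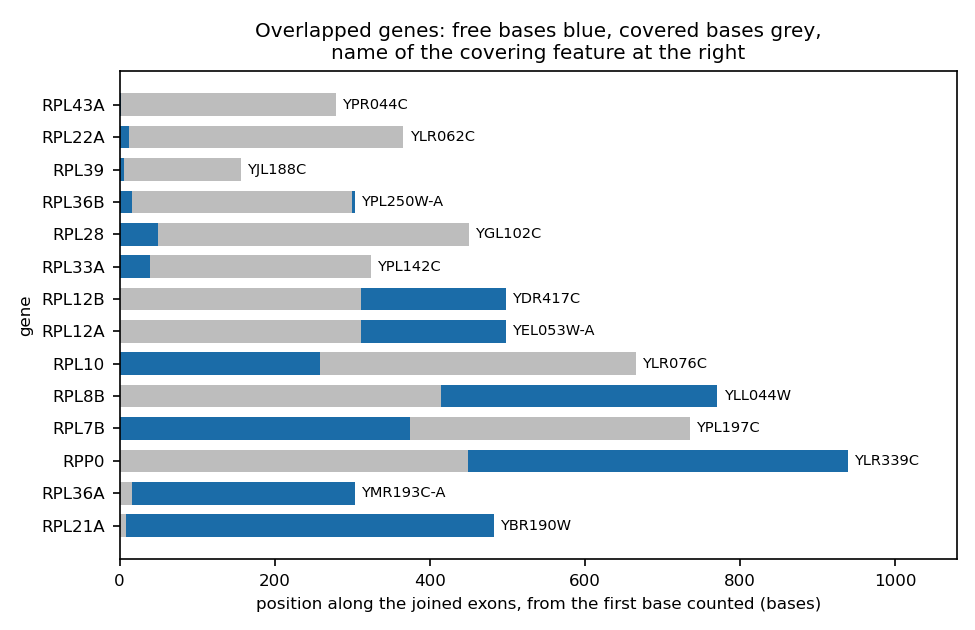
The 14 overlapped genes drawn along their joined exons in bases, with free bases in blue, covered bases in grey and the name of the covering feature at the right. RPL43A kept 2 free bases and RPP0 490.

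When A and B copies were added and divided by feature length, the 35 proteins without a copy covered by 10% or more ranged from 1717 CPM per kilobase for RPL4 to 23063 for RPL41, with a median of 3164. The highest 3 single genes were RPL41A (13556 CPM per kilobase), RPL41B (9507) and RPP2B (4068). RPL41 encodes the smallest protein of the ribosome, and its feature of 78 bases holds coding bases only, so the message reaches beyond the length used here. RPL41 and RPL4 are among 7 proteins with under 60% unique 50-base windows, and the other 28 ranged from 1901 for RPL9 to 6794 for RPP2. The lowest single genes under 10% overlap were RPL15B (138 CPM per kilobase), RPL18B (162) and RPL22B (174).

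The stalk genes encode the flexible arm of the subunit that recruits translation factors. RPP0 is its base and the acidic proteins of the RPP1 and RPP2 pairs are its arms. RPP0 had 1005 and 1361 CPM in Ctrl 1 and 2, and 898 and 994 in TUDCA 1 and 2. RPP1A had 1153 and 1488 CPM in Ctrl, and 1032 and 1055 in TUDCA. RPP1B had 650.2 and 817 CPM in Ctrl, and 606 and 610.3 in TUDCA. In all 5 stalk genes each TUDCA library was lower than each Ctrl library, as was the case for 23.9% of all genes tested. RPP2A had 829.7 and 1110.2 CPM in Ctrl, and 769 and 791 in TUDCA. RPP2B, the most abundant of the 5 per kilobase, had 1347 and 1626 CPM in Ctrl, and 1232 and 1214 in TUDCA. Their log2 fold changes in edgeR ran from -0.27 for RPP1B to -0.34 for RPP1A, and 0 passed the test, with an unadjusted edgeR p under 0.05 in 1, against 4.56% of all genes. The median of the 5 was -0.31, and -0.095 without Ctrl 2. Per kilobase and summed over copies, the RPP2 pair (6794) and the RPP1 pair (5772) stood above every RPL protein with under 10% overlap except RPL41, and RPP0, covered over 47.8% of its bases, is not ranked beside them.

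Of the 10 RPL genes with no second copy, RPL3, whose protein reaches to the site of peptide bond formation, had the highest CPM before division by length. It had 2378 and 2946 in Ctrl 1 and 2 and 2222 and 2485 in TUDCA 1 and 2. Per kilobase RPL3, with a feature of 1164 bases, was at 2155 CPM, below RPL32 (3867) and RPL38 (3834) among others. RPL5, whose protein enters the subunit bound to its small ribosomal RNA, had 2166 and 2924 CPM in Ctrl, and 1989 and 2181 in TUDCA. RPL32 had 1443 and 1955 CPM in Ctrl, and 1310.4 and 1371 in TUDCA. In RPL32 the groups did not overlap, whereas in RPL3 and RPL5 TUDCA 2 lay above Ctrl 1. RPL25, whose protein holds nascent chain factors at the tunnel exit, had 931 and 1308 CPM in Ctrl, and 848 and 897 in TUDCA. RPL30, whose protein can block the splicing of its own message, had 898 and 1152 CPM in Ctrl, and 820.3 and 835 in TUDCA. RPL38 had 863 and 1132 CPM in Ctrl, and 806 and 833 in TUDCA. In these 3 genes the groups did not overlap. RPL29, which cells can live without, had 444 and 479.8 CPM in Ctrl, and 401 and 373 in TUDCA, and its groups did not overlap either. RPL10 had 872 and 1033 CPM in Ctrl, and 874 and 905 in TUDCA, so Ctrl 1 was its lowest library. In the 10 genes the median log2 fold change was -0.28, with 0 called by edgeR, and it was -0.097 without Ctrl 2. An unadjusted p under 0.05 was found in 2, against 4.56% of all genes, and TUDCA below Ctrl with no overlap in 6, against 23.9%.

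The copies of some pairs are almost the same sequence, and RPL41 and RPL35 are printed to show how little separates them. Capitals mark the bases that differ between A and B, with positions counted from 1 at the first base of the start codon and the A copy's base written first. RPL41A (chrIV:130407-130484, minus strand) and RPL41B (chrIV:221724-221801, minus strand) differ by C9T alone in 78 bases. RPL35A (chrIV:117664-118517, plus strand) and RPL35B (chrIV:217600-218367, plus strand) differ by T9C, G51A and T354C in 363 bases, of which the first 60 are shown.
RPL41A: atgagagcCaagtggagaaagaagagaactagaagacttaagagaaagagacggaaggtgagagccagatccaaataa
RPL41B: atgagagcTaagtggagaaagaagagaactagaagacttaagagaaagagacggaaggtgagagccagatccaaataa
RPL35A: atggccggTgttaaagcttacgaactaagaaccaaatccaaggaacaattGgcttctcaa
RPL35B: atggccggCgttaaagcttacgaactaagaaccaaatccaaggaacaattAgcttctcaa

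Only 31.0% of 50-base windows in RPL41 and 19.4% in RPL35 occurred only once, counted over both strands of the genome and the joined exons of ribosomal protein genes, and 16 of the 81 genes had under 60% such windows. How reads that fit both copies were assigned is not given in the sources used here, so the split between copies of these pairs is uncertain. The 7 proteins under 60% unique windows and 10% overlap had a median of 2796 CPM per kilobase, and the 28 others 3179.

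In the 28 pairs in which both copies were covered by less than 10%, the A copy took between 28.9% (RPL16) and 93.9% (RPL15) of the pair's counts as a mean over 4 libraries, with a median of 56.1%. These pairs include RPL1, RPL4, RPL11, RPL14, RPL35, RPL41 and RPL42, each with under 60% unique windows and so an uncertain split. The A copy held the larger part in 15 of these pairs, and 9 lay between 40% and 60%. Counting error was small beside these shares: the 95% Wilson interval of RPL15 in Ctrl 1 was 93.5% to 93.8%. Such intervals cover counting error only. Over all 35 pairs the range was 0.286% (RPL43) to 97.7% (RPL36), and both ends belong to pairs with a copy covered by more than 90%. The other pairs with a copy covered by 10% or more were RPL33 (1.21%), RPL22 (23.1%), RPL7 (93.6%), RPL12 (48.8%) and RPL8 (47.8%). Per kilobase free of overlap, RPL12A and RPL12B, which kept equal free lengths, were at 1013 and 1065 CPM. RPL7A and RPL7B were at 1845 and 246 CPM per free kilobase, so the A copy led on this scale too. Only 43.1% of windows in RPL7 were unique, so its split is uncertain as well. The free bases of RPL7B are bases 1 to 375, its 5′ part, whereas RPL7A was free over its whole length. RPL8A and RPL8B were at 702 and 1675 CPM per free kilobase, so the B value was the higher on this scale. The free bases of RPL8B are bases 415 to 771, its 3′ part, whereas RPL8A was free over all 771 bases. A part is thus set against a whole gene, and evenness of coverage along the genes was not tested. Which copy of RPL8 led is therefore uncertain.

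In 2 of the 28 pairs 1 copy took over 80% of the counts, and RPL15 was the higher of them. RPL15A, which encodes a core protein of the early subunit, held 93.7% and 94.4% in Ctrl 1 and 2, and 93.2% and 94.2% in TUDCA 1 and 2. Next highest were RPL4 (73.1% ± 0.211, SD over 4 libraries) and RPL31 (72.6% ± 0.555). At the other end the B copy led in RPL16 (A share 28.9% ± 1.41), RPL13 (31.6% ± 0.0907), RPL26 (31.8% ± 0.986) and RPL1 (38.0% ± 2.14), the pair of the stalk that guides spent tRNA out. Only 27.3% of windows in RPL4 and 19.0% in RPL1 were unique, so the shares of these 2 pairs are uncertain. RPL20 (47.4% ± 0.494) and RPL21 (53.3% ± 1.03) were the nearest to an even split. Between the highest and lowest library the share moved by a median of 1.75 percentage points, and by less than 2 points in 15 of the 28.

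**Figure D3:**
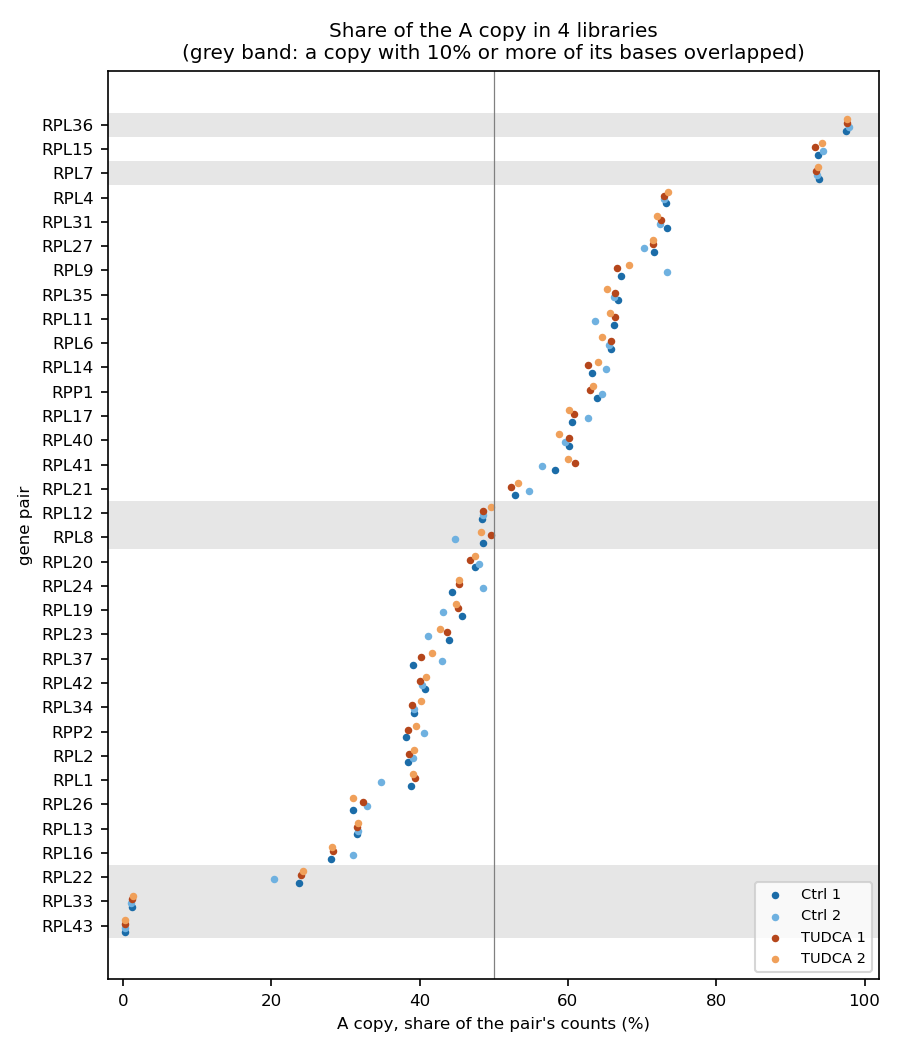
Share of the A copy in the pair's counts, in percent, for 34 of the 35 pairs, with 1 point per library. Grey bands mark pairs with a copy covered by 10% or more, and in RPL9 the point of Ctrl 2 (73.3%) lies apart from the other 3.

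The A and B copies of most pairs had close fitted changes, and those of small subunit pairs were closer still. The fitted log2 fold change of A minus that of B had a median size of 0.050 over 35 pairs and stayed under 0.1 in 26. Over the 24 small subunit pairs the median size was 0.024, and 22 stayed under 0.1. Groups did not overlap in the A to B ratio in 7 of 35 pairs (20%), beside 5 of 24 (20.8%) small subunit pairs, and the exact permutation test of 2 against 2 libraries cannot go below p = 0.333. The ratio differed more between Ctrl 1 and Ctrl 2 than between the groups in 27 of the 35 pairs, and Ctrl 2 was the library farthest from the others in 20.

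The largest difference was in RPL9, in which A minus B was -0.22. The A share of RPL9 was 67.2% and 73.3% in Ctrl 1 and 2, and 66.6% and 68.2% in TUDCA 1 and 2, so Ctrl 2 alone lay apart, and without Ctrl 2 the difference was 0.018. In RPL41 the A share was 58.3% and 56.5% in Ctrl, and 60.9% and 60.03% in TUDCA, so the A copy took more in each TUDCA library than in either Ctrl library. A minus B was 0.19 in RPL41, and 0.13 without Ctrl 2. RPL22 (0.19) and RPL33 (0.18), each with a copy covered by more than 80%, were at 0.034 and 0.053 without Ctrl 2. RPL1 was at 0.16, and at 0.021 without Ctrl 2. With 31.0% unique windows in RPL41 and 19.0% in RPL1, the split between the copies of these pairs is uncertain. All 7 pairs with separate groups reach the exact permutation p of 0.333 that is the smallest possible.

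The share of the library taken by the 81 genes was 5.61% in Ctrl 1, 7.21% in Ctrl 2, 5.29% in TUDCA 1 and 5.58% in TUDCA 2. The mean was 6.41% ± 1.13 (SD, n = 2) in Ctrl and 5.43% ± 0.200 (SD, n = 2) in TUDCA, and the exact two-sided permutation test gave p = 0.333, the smallest it can give. The distance between the Ctrl libraries exceeded that between the group means. Small subunit genes moved with them: large subunit counts divided by small subunit counts were 1.176, 1.180, 1.187 and 1.181 in Ctrl 1, Ctrl 2, TUDCA 1 and TUDCA 2. On the log2 scale relative to each gene's mean over 4 libraries, the median of the 81 genes was -0.072 in Ctrl 1, 0.35 in Ctrl 2, -0.18 in TUDCA 1 and -0.096 in TUDCA 2.

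**Figure D4:**
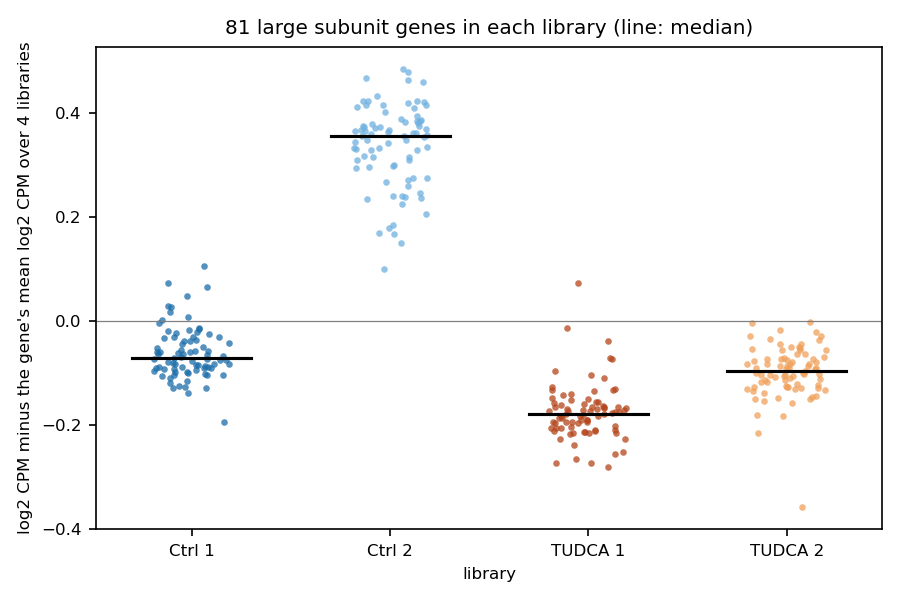
Level of the 81 genes in each library, as log2 CPM minus the gene's mean log2 CPM over 4 libraries, with 1 point per gene and a line at the median. The median was 0.35 in Ctrl 2 and between -0.18 and -0.072 in the other 3 libraries.

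In TUDCA against Ctrl, the quasi-likelihood F test of edgeR, adjusted by Benjamini-Hochberg over all genes, called 0 of the 81 genes, and the smallest adjusted p among them was 0.544. Over all 6420 genes tested, it called 0.0623% lower and 0.0935% in either direction. At an unadjusted p under 0.05, 12 of the 81 were lower in edgeR, against 4.56% of all genes, and their 95% intervals excluded 0. The count was 4 with library totals only, 22 with upper-quartile scaling, 7 in limma-voom and 52 in DESeq2. The 4.56% is for the main edgeR fit alone, so these other counts have no share of all genes beside them. After adjustment DESeq2 called 1 of the 81, RPL41B (background 0.478% lower), and limma-voom called 0 (background 0.0623% lower). The fitted value was below 0 for all 81, against 51% of all genes, and in 51 of the 81 each TUDCA library was lower than each Ctrl library, against 23.9%. In 0 of the 81 was each TUDCA library higher, against 23.7% of all genes. The median log2 fold change of the 81 was -0.29, a 1.22-fold lower level, beside -0.0037 over all genes and -0.30 over the 56 small subunit genes. With a trend on feature length over all genes removed, the median of the 81 was -0.18.

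The difference was smaller without Ctrl 2 and larger without Ctrl 1. The log2 difference between Ctrl 2 and Ctrl 1 had a median of 0.43 over the 81 genes and was larger than the group difference in 72 of them. The count of 72 has no share over all genes beside it. Without Ctrl 2 the median log2 fold change was -0.061, edgeR called 0 (background 0.295% lower), 4 had an unadjusted p under 0.05, and the fitted value was above 0 in RPL7B (0.019), RPL10 (0.030) and RPL18B (0.11). Without Ctrl 1 the median was -0.47. Each of these 2 fits leaves 1 Ctrl library. With the replicate number as a block edgeR called 24 of the 81 lower, against 2.52% of all genes, though the numbers mark no stated pairing. The cause of the height of Ctrl 2 was not tested.

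RPL41B had the smallest p of the 81. Its level was 791 and 872 CPM in Ctrl 1 and 2, and 671 and 633 in TUDCA 1 and 2, so the groups did not overlap. In edgeR the log2 fold change was -0.35 with a standard error of 0.10 (edgeR adjusted p = 0.544), and without Ctrl 2 it was -0.28. RPL41A, which differs from it by 1 base, was at -0.16, and the split of counts between them is uncertain. With the CPM of both copies added, the log2 difference of TUDCA from Ctrl was -0.24. RPL22B, whose message is held back from splicing by the RPL22 protein, had 61.3 and 86.7 CPM in Ctrl and 52.1 and 56.7 in TUDCA, with the lowest fitted value, -0.44 (edgeR adjusted p = 0.544). Its groups did not overlap, and without Ctrl 2 its value was -0.17. RPL37B had 641 and 748 CPM in Ctrl and 565 and 546 in TUDCA, at -0.32 (edgeR adjusted p = 0.544). Its groups did not overlap, and without Ctrl 2 its value was -0.20.

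The other low values were RPL8B at -0.42, with 549 and 819 CPM in Ctrl and 484 and 539 in TUDCA, and RPL43A at -0.41. RPL43A had 2 free bases and 71 to 139 counts in a library, so little can be read from its value. Without Ctrl 2, RPL8B and RPL43A were at -0.099 and -0.17. The highest values were RPL10 at -0.10, RPL1A at -0.13 and RPL9B at -0.14, which were at 0.030, -0.024 and -0.050 without Ctrl 2. RPL1A had 602 and 694 CPM in Ctrl and 573 and 610.2 in TUDCA. RPL9B had 333 and 373 CPM in Ctrl and 312 and 329 in TUDCA. In RPL8B and RPL9B the groups did not overlap, whereas in RPL1A TUDCA 2 lay above Ctrl 1. No member reached a 2-fold fitted change, and the largest was 1.36-fold lower.

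**Figure D5:**
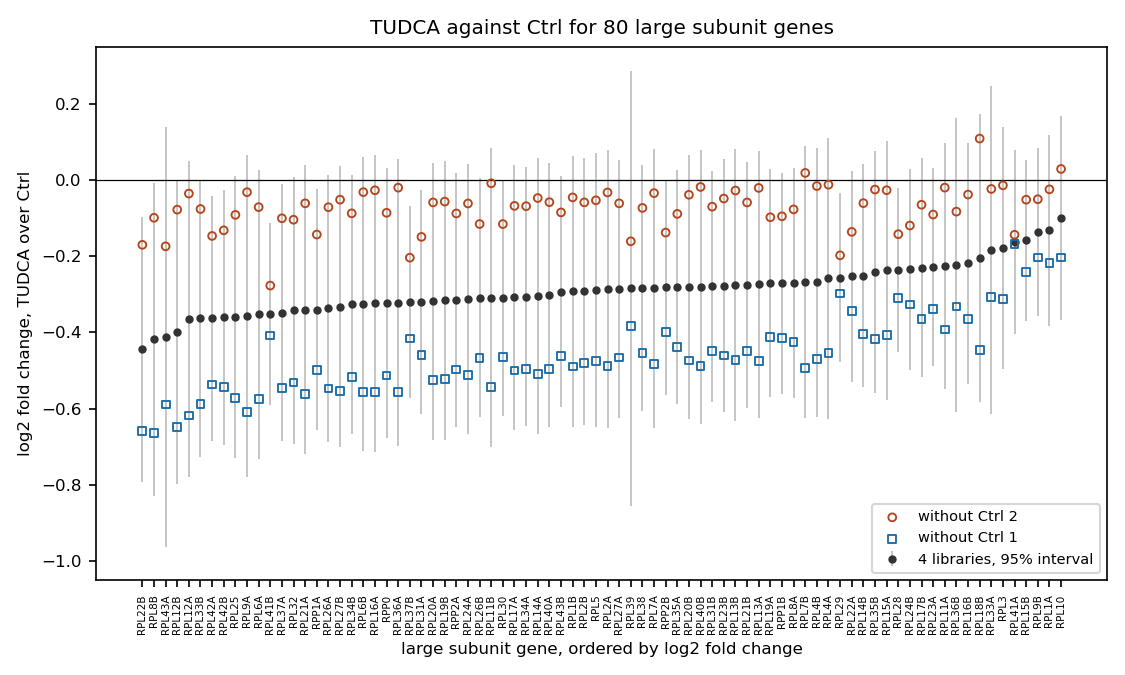
Log2 fold change of TUDCA over Ctrl for 80 of the 81 genes, ordered by value, with the 95% interval of the edgeR fit. Open circles are the fit without Ctrl 2, with a median of -0.061 over the 81, and open squares the fit without Ctrl 1, with a median of -0.47 over the 81.

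Medians were close whether or not the counted feature held an intron, and whether a gene was an A or B copy or was overlapped. The median log2 fold change was -0.29 in the 51 genes with an intron in the feature and -0.28 in the 30 without. RPL20A and RPL20B are among those without, though RefSeq gives each 2 coding exons. It was -0.31 in the 35 A copies and -0.28 in the 35 B copies. It was -0.29 in the 69 genes covered by less than 10% and -0.28 in the 12 others. Feature length over the 69 genes had a Pearson r of 0.70 with the log2 difference of TUDCA 2 over TUDCA 1 and of 0.42 with that of Ctrl 2 over Ctrl 1. It had an r of 0.21 with the log2 fold change and of 0.69 with the log2 fold change without Ctrl 2. Without the RPL41 pair these 4 values were 0.57, 0.17, 0.37 and 0.61. These genes share 4 libraries and are no independent replicates. Over all genes tested the Ctrl 2 minus Ctrl 1 difference ran the other way with length, from a median of 0.13 in features of up to 200 bases to -0.081 in those over 1200. The median log2 fold change over all genes went from -0.19 to 0.072 between the same length classes.

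Promoters are shown because Rap1 is a main activator of these genes, and a link between motifs and the changes above was not tested. The 500 bases before the first base of the counted feature were searched on both strands in RefSeq build R64. The motifs were CCCNTACA, a form of the Rap1 site, and GACGC, a form associated with Fhl1. In RPL20A and RPL20B the counted feature lacks the first of 2 RefSeq coding exons, so the window there began inside the gene. Neither had a match, and both stay among the 81. CCCNTACA was in 24 of the 81 promoters (29.6%) and in 3.99% of 5987 promoters of all genes. GACGC was in 32 of the 81 (39.5%) and in 30.4% of all. AAAAATTT and GATGAG, elements of ribosome biogenesis genes, were in 27.2% and 20.99% of the 81 and in 20.5% and 28.3% of all. Overlap between matches of different motifs was not counted. In the stretches below capitals mark matches to CCCNTACA on either strand or to GACGC, and the stretches are read on the gene's strand, with RPL13B from chrXIII:551478-551647, RPL41A from chrIV:130725-130814 and RPL41B from chrIV:222042-222171, all on the minus strand.
RPL13B: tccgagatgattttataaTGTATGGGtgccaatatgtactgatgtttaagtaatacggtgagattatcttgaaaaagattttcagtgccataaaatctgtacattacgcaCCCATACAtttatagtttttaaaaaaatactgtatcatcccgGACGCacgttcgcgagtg
RPL41A: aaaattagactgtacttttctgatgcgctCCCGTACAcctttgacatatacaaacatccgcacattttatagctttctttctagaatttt
RPL41B: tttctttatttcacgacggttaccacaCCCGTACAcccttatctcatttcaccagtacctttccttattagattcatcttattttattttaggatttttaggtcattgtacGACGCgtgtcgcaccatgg

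RPL13B held 2 matches to CCCNTACA, on opposite strands. RPL41A held 1 match to CCCNTACA, at 301 bases before the first coding base, and RPL41B 1 at 343 bases and 1 match to GACGC at 259. The 24 genes with a CCCNTACA match had a median log2 fold change of -0.29 and the 57 without one -0.29 as well. A match describes letters and not binding.

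Genes that act on these proteins or with the large subunit were read from the same edgeR fit. In these lists, apart from the elongation factors, DESeq2 and limma-voom also called 0. Over all genes, 8.32% had an unadjusted edgeR p under 0.05 in either direction. None of the 16 regulators of ribosomal protein genes was called, their median log2 fold change was 0.047, and 1 had an unadjusted p under 0.05. Among them TOD6, a repressor of ribosome biogenesis genes, was at -0.36 (27.0 ± 5.07 CPM in Ctrl and 21.01 ± 0.903 in TUDCA, SD, n = 2) and FHL1 at 0.15 (76.7 ± 0.108 and 85.1 ± 2.51). Without Ctrl 2 they were at -0.15 and 0.15, and the median of the list at 0.024. None of the 6 dedicated chaperones of large subunit proteins was called, with a median of -0.15 and 1 at an unadjusted p under 0.05, and RRB1, the chaperone of RPL3, was at -0.30 and SYO1, which carries RPL5 and RPL11 into the nucleus, at -0.29. Without Ctrl 2 they were at -0.12 and 0.0015, and the median of the list at -0.037. None of the 18 late maturation and export factors was called, with a median of -0.21, and 7 had an unadjusted p under 0.05. MRT4, which holds the place of RPP0 during assembly, was at -0.43, and ALB1 at -0.35. Without Ctrl 2 they were at -0.25 and -0.17, and the median of the list was -0.088, whereas without Ctrl 1 it was -0.32. None of the 6 methyltransferases of large subunit proteins was called, their median was -0.0015, and 0 had an unadjusted p under 0.05. HPM1 was at -0.13 and RKM2 at -0.10, and at -0.054 and -0.037 without Ctrl 2.

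None of the 10 nascent chain partners at the tunnel exit was called, their median was -0.11, and 0 had an unadjusted p under 0.05. EGD2 and EGD1, subunits of the nascent polypeptide-associated complex, were at -0.22 and -0.18, and at -0.088 and -0.11 without Ctrl 2. The list median was then -0.0071. Of the 10 measured elongation factors 1 was called, and their median was -0.10, and -0.0032 without Ctrl 2. ANB1, the hypoxic form of the factor eIF5A, had 87.0 and 100.8 CPM in Ctrl and 43.3 and 40.1 in TUDCA, and it fell by 1.17 on the log2 scale (edgeR adjusted p = 0.00465). Without Ctrl 2 its value was -1.06. HEF3, a second form of the fungal elongation factor, was at 0.22 (edgeR adjusted p = 0.581).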

How the data were processed

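Poly(A)-selected RNA of 4 libraries, 2 Ctrl and 2 TUDCA, was analysed from raw counts per feature as the authors deposited them. The other deposited tables hold signal, in which each library's counts had been divided by a constant (0.899, 1.15, 0.930 and 1.05 in Ctrl 1, Ctrl 2, TUDCA 1 and TUDCA 2), and were used only for that check. STAR 2.5.4b, featureCounts 1.6.0, DESeq2 1.26.0 and build R64 are named per the submitters' processing notes, and the rule for reads that fit 2 places and the strand setting are not given in the sources used here. Of 7127 features 6047 matched RefSeq by locus tag and 1080 did not, and 6038 of the matched had the same span as in RefSeq R64.

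Genes were filtered at a minimum count of 10, which kept 6420 and left out 707, scaled by TMM and tested with edgeR 4.0.16 (R 4.3.3) by its quasi-likelihood F test at an adjusted p of 0.05. Alternatives were other scalings, no filter, DESeq2 1.42.0, limma-voom (limma 3.58.1), a replicate block, removal of a loess trend on feature length and leaving out each library. The same fit was tested on simulated data. Overlap was taken from the deposited coordinates, and the limit of 10% was chosen after the data were seen. Members and lists were chosen with earlier results of these data known. Genes were named by a fixed rule: stalk genes, genes with no second copy, pairs at the ends and middle of the A share, pairs with the largest A minus B difference, and genes with the smallest p, extreme fold change or extreme level per kilobase. In each other list the 2 genes with the smallest p were named. Counts and medians cover all members, but 1 gene and its pair are not reported here by name and are not drawn in the plots that name genes.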

Additional observations from a re-analysis of the deposited data

How the results depend on the processing

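With other scalings and without the filter on low counts, the count of calls over all genes and that of members, the median and the direction of every named gene stayed as in the main result or within 1.5 times of it, whereas members at an unadjusted p under 0.05, 12 in the main result, ranged from 4 with library totals only to 22 with upper-quartile scaling. Removing the trend on feature length moved the median of members from -0.29 to -0.18, and leaving out a library gave -0.47 to -0.061. DESeq2 called 59 genes over all and 1 member, against 6 and 0 in edgeR. The replicate block called 353 genes and 24 members: the numbers mark no stated pairing, and same-numbered libraries deviated together with a correlation of 0.183 across genes, over 2 pairs. Leaving out a library gave 7 to 2010 calls over all genes and 0 to 73 among members, the upper ends without Ctrl 1. Without Ctrl 1, 871 genes were called lower, and without Ctrl 2 there were 43 calls, and without TUDCA 2 there were 22. Values that changed sign without Ctrl 2 were RPL7B (0.019), RPL10 (0.030), RPL18B (0.11), SYO1 (0.0015) and HEF3 (-0.0038), and without Ctrl 1 they were -0.49, -0.20, -0.45, -0.51 and 0.49, and the cause was not tested. The median A share over pairs under 10% overlap, an alternative added after seeing the data, was 56.1%, against 48.8% over all pairs. The counts of genes covered by more than 80%, 68 to 139 in RPL39 and RPL43A, limit what can be read from them.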
